A study of Mus musculus with 3 samples.

Results

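Nrf2 ChIP-seq peaks at the Gstp1 and Gstp2 glutathione transferase cluster were described in C2C12 myotubes. The peaks were selected by position, as every peak overlapping chromosome 19 from 3980000 to 4100000 in the mm9 build, a window of 120 kb that places Gstp1 near 4.036 Mb and Gstp2 near 4.041 Mb, both on the minus strand. The window was proposed with both peak lists already known, and the values that drew it were the position, score and overlap of its strongest peaks. Those values are therefore given as a description, with no test. By this rule replicate 1 had 1 peak in the window out of 2892, and replicate 2 had 2 out of 3593. These made up 1 of the 1750 regions shared by the lists and 1 further peak of replicate 2.

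C2C12 is an immortalised mouse myoblast line whose cells fuse into myotubes when serum is lowered. Wild-type cells had differentiated for 72 h and then received CDDO-Im at 100 nmol/L for 3 h. CDDO-Im, an imidazolide derived from oleanolic acid, is used to activate Nrf2. The labels name 2 ChIP replicates made with an anti-Nrf2 antibody and 1 input, all from cells given the compound, so no untreated sample shows what the treatment changed. The labels do not say whether the replicates came from separate cultures, and their differences may be technical. C2C12 is a single cell line, and no expression was measured, so neither the myotube state nor the Gstp transcripts could be checked in these data. No source used here gives the number of reads behind either list, and the depth is unknown.

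Gstp1 and Gstp2 encode pi-class glutathione transferases, enzymes that couple glutathione to reactive electrophiles so that these can be exported from the cell. In the mouse they are close tandem copies, and Gstp1 is known as the more active enzyme. Nrf2 is held at low levels by Keap1 until electrophiles or triterpenoids modify Keap1. It then pairs with small Maf proteins on the antioxidant response element, a short DNA motif related to the AP-1 site. Glutathione transferases are among its classical targets, and the rat Gstp gene has an upstream enhancer with AP-1-like elements to which Nrf2 and MafK are known to bind.

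The 250 bases before the start of each gene are shown because they are the sequence of these members that was at hand, and because they show how alike the copies are and where letters related to the antioxidant response element lie. They were read from RefSeq promoter windows of the GRCm38.p6 build on the minus strand, at chr19:4037913-4038162 for Gstp1 and chr19:4042222-4042471 for Gstp2. These coordinates are of another build than the peaks, and no distance to a peak was taken from them. Both are written 5′ to 3′ with matches to TGANNNNGC on either strand in capitals.
Gstp1: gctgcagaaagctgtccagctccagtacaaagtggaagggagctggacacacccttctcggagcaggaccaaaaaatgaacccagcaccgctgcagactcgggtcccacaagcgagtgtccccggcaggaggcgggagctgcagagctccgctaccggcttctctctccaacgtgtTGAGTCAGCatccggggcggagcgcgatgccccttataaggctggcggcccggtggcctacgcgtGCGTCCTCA
Gstp2: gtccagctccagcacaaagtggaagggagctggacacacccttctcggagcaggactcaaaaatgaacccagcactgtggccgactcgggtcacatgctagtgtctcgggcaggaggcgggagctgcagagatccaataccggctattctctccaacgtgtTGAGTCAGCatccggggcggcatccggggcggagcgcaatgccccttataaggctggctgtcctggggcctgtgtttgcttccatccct

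The same 9 letters, TGAGTCAGC, occurred in both promoters, starting 74 bases before the start of Gstp1 and 89 bases before that of Gstp2. They hold the AP-1-like heptamer TGAGTCA followed by GC. A stricter spelling of the core of the antioxidant response element, TGACNNNGC, was also searched on both strands. It was absent from the whole 300-base window of Gstp1, Gstp2 and Gstp3, the third gene of the class. The shared TGAGTCAGC departs from that spelling only in having G in place of C after TGA. Over all genes in the promoter table TGACNNNGC occurred in 12.4% of 32851 windows. The permissive TGANNNNGC, of which every TGACNNNGC is a case, occurred in 41.3% of windows, so a match to it is common. TGANTCA, searched after the sequences had been seen, occurred in 7.81% of windows. With GC after it, TGANTCAGC occurred in 1.19% of windows. Gstp3 had neither of these last 2. It had 2 matches to TGANNNNGC, TGAGTCTGC starting 152 bases before the start and TGAGCTTGC starting 7 bases before it. A match is a description of letters, and a missing match says only that those letters are not in this window.

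The promoters of Gstp1 and Gstp2 were near-copies of each other. Of 281 aligned bases in their 300-base windows, 246 were identical (87.5%), and the longest run they shared without a mismatch was 43 bases. Against Gstp3, 76.0% of 200 aligned bases were identical for Gstp1 and 72.8% of 202 for Gstp2. The longest run shared with Gstp3 was 8 bases for either gene. Aligned bases leave out gaps, and no pair of unrelated promoters was aligned for comparison. The shares for Gstp3 therefore do not by themselves show that its promoter is related to the other 2. No source used here states how reads that match more than 1 Gstp copy were placed, and the part of such reads in where peaks were listed was not tested. The list of 28 glutathione transferase genes and relatives, of which 25 had a promoter window, held TGACNNNGC in 4 genes: Gsta3, Gstm5, Gstm7 and Mgst1. That share of 16% stood beside 14.0% of all 27025 genes in the table. TGANNNNGC occurred in 15 of the 25 genes (60%), beside 45.0% of all genes. A gene counted if any of its windows matched. The 25 genes had 35 windows, beside 32851 windows for the 27025 genes, so the shares of genes are not strictly like for like. TGANTCAGC occurred in 2 of the 25 genes, Gstp1 and Gstp2, from whose promoters its letters were taken, and in 1.37% of all genes. Peaks near the other transferases were not sought, since no mm9 positions of those genes were at hand.

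Both replicates listed a strong Nrf2 peak on the upstream side of the Gstp genes. In replicate 1 it spanned 4045735 to 4046555, was 821 bp wide and had a score of 746.8. In replicate 2 it spanned 4045613 to 4046658, was 1046 bp wide and had a score of 1763. The score is the authors' own value for each peak and was taken to be the p-value of the peak caller written as minus log10 and multiplied by 10. It was used mainly to rank peaks within a list, because it grows with depth. Score minima, score gaps and ratios between the lists are given as description only.

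The centre of this peak lay 5.15 kb from the Gstp2 position in replicate 1 and 5.14 kb in replicate 2. From the Gstp1 position it lay 10.145 kb away in replicate 1 and 10.1 kb away in replicate 2. It had higher coordinates than both positions, which is the upstream side of genes on the minus strand, so of the pair Gstp2 was the nearer gene. The near edge lay 4.74 and 4.61 kb from the Gstp2 position in replicates 1 and 2. The gene positions are given to about 1 kb and may mark a point within each gene instead of its start, so the distances to the starts may differ by more than that rounding. Whether the peak fell in an exon, an intron or between genes was not annotated, since no mm9 gene table was used here. Neither list held a peak over the Gstp1 or the Gstp2 position itself, and neither held one in the window on the other side of the genes. In RefSeq gene order on GRCm38.p6 the pair stands next to Ndufv1, a subunit gene of respiratory complex I, on one side and next to Gstp3 on the other, upstream side. Doc2g and Nudt8 follow beyond Ndufv1, and the noncoding gene Gm42060 and the pseudogene Rnu3b-ps1 follow beyond Gstp3. Which of the genes on the upstream side is nearest to the peak could not be read without their mm9 positions.

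**Figure D1:**
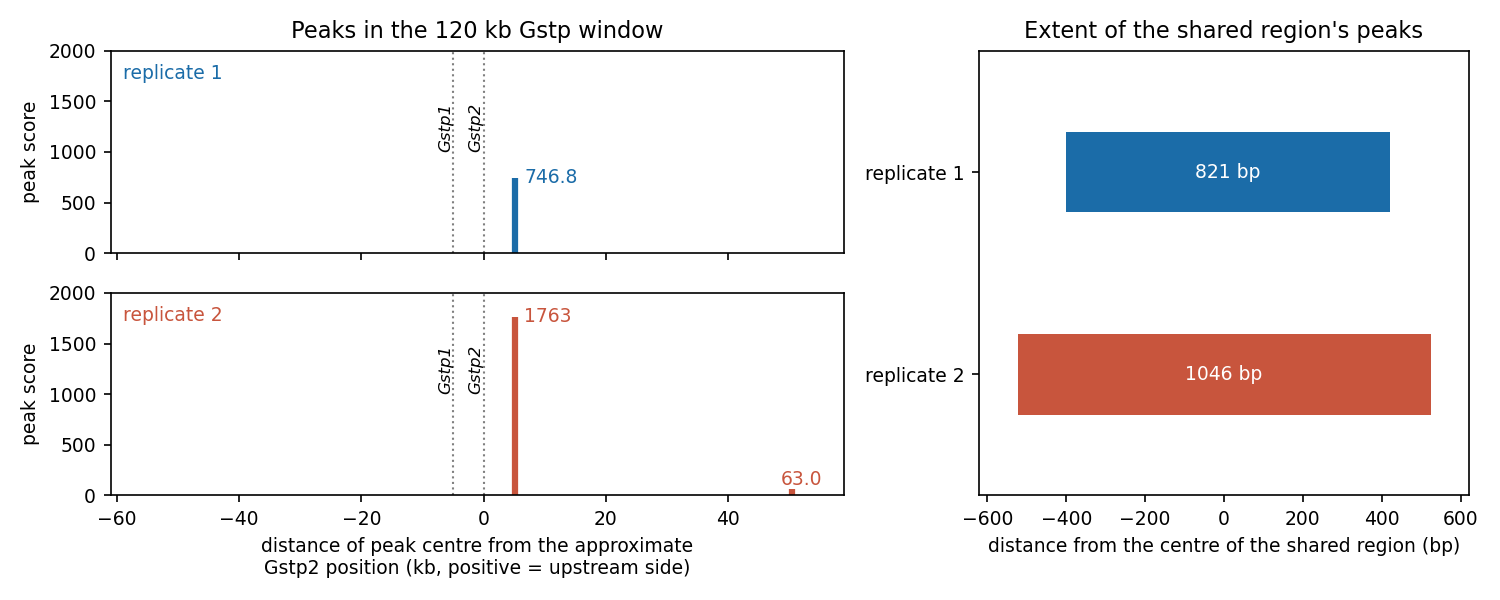
Left, score of each peak in the window (vertical axis, linear from 0) against the distance of its centre from the approximate Gstp2 position (kb, positive on the upstream side), with replicate 1 above and replicate 2 below and dotted lines at the approximate gene positions. Right, extent of the 2 overlapping peaks in bp from the centre of their shared region. The shared peak stands about 5 kb upstream of the Gstp2 line in both replicates, with scores of 746.8 and 1763, and the second peak of replicate 2 scores 63.0.

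The Gstp peak stood near the head of both lists. It ranked 19 of 2892 by score in replicate 1 and 6 of 3593 in replicate 2, so the share of the list that scored higher was 0.622% in replicate 1 and 0.139% in replicate 2. On chromosomes 2 to 19 alone it ranked 16 of 1312 and 6 of 2238. Among isolated peaks, those with fewer than 2 other peaks of their list within 100 kb between centres, it ranked 9 of 1255 and 4 of 2152. The rise in rank in replicate 1 came from leaving out 10 higher-scoring peaks that lay in dense groups.

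The peaks next to it in score show how close the order was. In replicate 1 the peak above it, on chromosome 13, scored 760.6, and the peak below it, on chromosome 8, scored 735.2. The peak on chromosome 8 was 2265 bp wide and had 18 other peaks within 100 kb, whereas the Gstp peak of replicate 1 had 0. In replicate 2 the neighbours in score were peaks on chromosome 16 (1896) and chromosome 8 (1749), which were 940 and 941 bp wide.

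By width the Gstp peak was less extreme than by score. It was the 390th widest of replicate 1 and the 396th widest of replicate 2, and 13.5% and 11.0% of the peaks were wider. The median peak was 455.5 bp wide in replicate 1 and 612 bp in replicate 2.

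**Figure D2:**
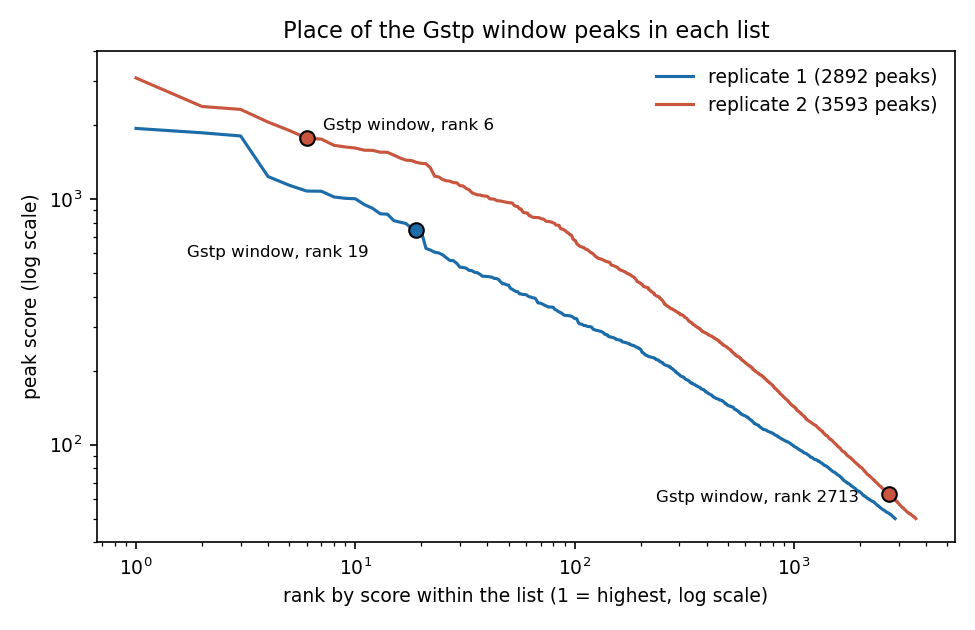
Score of every peak (vertical, log scale) against its rank within its list (horizontal, log scale, 1 the highest), with replicate 1 in blue and replicate 2 in red and filled circles for the peaks of the Gstp window. The shared peak ranks 19 and 6, and the second peak of replicate 2 ranks 2713 of 3593.

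The replicates placed the strong peak at nearly the same bases. The peak of replicate 1 lay wholly within that of replicate 2, which reached 122 bp further on the side of the genes and 103 bp further on the other side. The overlap of 821 bp was 100% of the peak of replicate 1 and 78.5% of that of replicate 2. The centres were 9.5 bp apart. Over the whole lists, a partner was found for 66.1% of the 2892 peaks in replicate 1 and for 50.01% of the 3593 in replicate 2. Among peaks of like rank the background was higher still. All 68 other peaks of replicate 1 within 50 places of the Gstp peak (100%) and all 55 such peaks of replicate 2 (100%) had a partner. The presence of the Gstp peak in both lists was thus shared with every peak of its rank.

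The agreement in position was closer than in most shared regions. There were 1613 regions made of 1 peak from each list, and their centres had a median offset of 43 bp (quartiles 16.5 and 86 bp). An offset smaller than the 9.5 bp of the Gstp region was found in 203 of them (12.6%). Among the 29 such regions in which both scores reached 500, the median offset was 39.5 bp and 2 regions had a smaller one. On chromosome 19 the median was 26.5 bp, and 5 of the 23 regions (21.7%) had an offset smaller than 9.5 bp. The peak of replicate 2 was 1.27 times as wide as that of replicate 1, beside a median of 1.30 over the 1613 regions. Among the 29 strong ones the median was 1.14 and the upper quartile 1.22, and 23 had a smaller ratio than the Gstp region. A peak of replicate 1 nested inside that of replicate 2 was seen in 1027 of the 1613 regions (63.7%).

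The shared region was the 12th of 1750 when each region was placed by its rank in the list where it ranked lower. On chromosome 19 it had the highest score in both replicates. In replicate 1 the next scores on this chromosome were 493, 469 and 353. In replicate 2 they were 1406, 1163 and 963. The same 3 regions followed the Gstp region in both lists, with the second and the third in opposite order. They lay at 10052629 to 10053607, at 59052879 to 59053837 and at 41529228 to 41530193, as spanned in replicate 2. In replicate 1 the gap from the Gstp peak to the second peak of the chromosome was larger than the gap from the second to the fourth. In replicate 2 it was smaller than that gap.

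The score was higher in replicate 2, by a ratio of 2.36. This direction was that of 1157 of all 1750 shared regions (66.1%) and of 22 of the 23 on chromosome 19. The median ratio was 1.29 over the 1613 regions with 1 peak of each list and 2.65 over the 23 on chromosome 19. Among the 29 such regions in which both scores reached 500, the median was 2.01. Of these, 20 had a smaller ratio than the 2.36 of the Gstp region. Since the score grows with depth, no difference in binding between the replicates was read from this ratio.

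**Figure D3:**
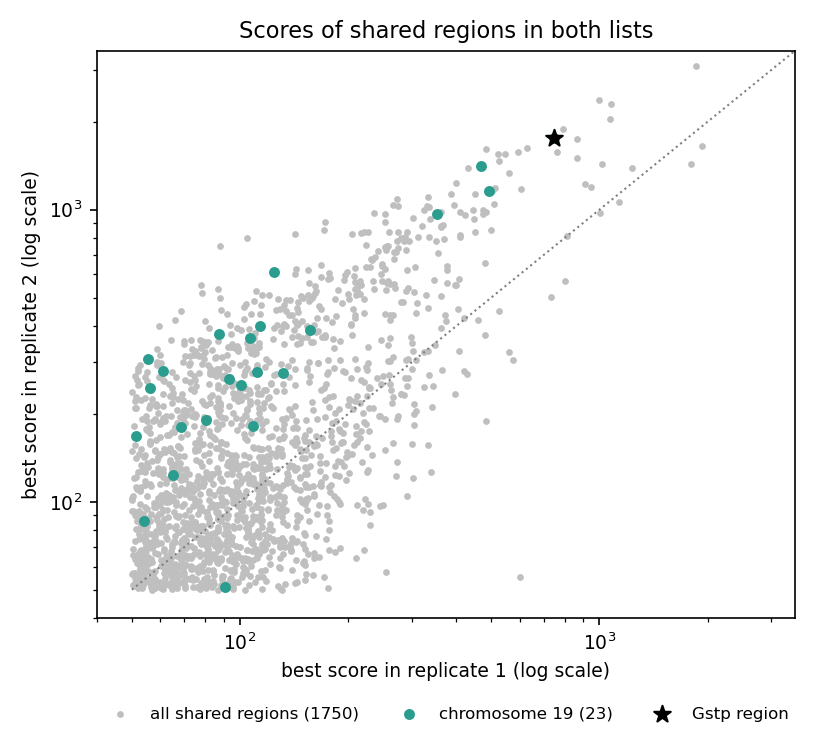
Best score in replicate 2 (vertical, log scale) against best score in replicate 1 (horizontal, log scale) for the 1750 shared regions (grey), with the 23 of chromosome 19 in green, the Gstp region as a black star and a dotted line of equal scores. The Gstp region lies at 746.8 and 1763, above the line and highest of the chromosome 19 regions on both axes.

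In replicate 1 the surroundings of the Gstp peak were sparse beside those of the whole list. There the nearest other peaks on chromosome 19 were centred 471.6 kb away on the upstream side and 798 kb away on the other side. The one on the upstream side, at 4517509 to 4518075, scored 157 and had a partner in replicate 2, where it scored 388. The one on the other side, at 3248142 to 3248512, scored 56.6 and had none. Replicate 2 listed 0 peaks between the start of the chromosome and the Gstp peak. In replicate 1, 81.8% of all peaks had a nearer neighbour than the Gstp peak had. In replicate 2, with another peak centred 45.4 kb away, that share was 49.0%. The median distance to the nearest peak was 12.3 kb over replicate 1 and 50.9 kb over replicate 2. Over isolated peaks alone it was 291 kb in replicate 1 and 229 kb in replicate 2.

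Replicate 2 alone held a second peak in the window, and it was weak. It spanned 4091210 to 4091808, was 599 bp wide and scored 63.0, close to the lowest score in that list (50.02). Its rank was 2713 of 3593, and 75.5% of the list scored higher. Its centre lay 45.4 kb from that of the strong peak, 50.5 kb from the Gstp2 position and 55.5 kb from the Gstp1 position. It overlapped no peak of replicate 1. Of the 100 peaks of replicate 2 within 50 places of it in rank, 36 (36.0%) had a partner, so a peak of this rank was more often listed once than in both replicates. Its far edge lay 8.19 kb inside the end of the window, and the next peak outside, at 4517449 to 4518125 in replicate 2, scored 388.

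Along chromosomes 2 to 19 a stretch of 120 kb with any peak was itself uncommon. The other chromosomes were not laid out in windows. When chromosomes 2 to 19 were laid out in 18270 windows of that length, 4.74% held a peak of replicate 1 and 9.07% a peak of replicate 2. A shared peak was held by 681 windows (3.73%). The Gstp window was not drawn without sight of the lists, so these shares are given as the background of its content and not as a test.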

How the data were processed

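Peak lists from Nrf2 ChIP-seq of 2 replicates were analysed, without the input reads. The submitters' processing notes name bcl2fastq 2.15.0, Bowtie2, MACS 1.4 and the mm9 build, without roles or settings. The deposited files hold a start, an end and a score for each peak, listed separately per replicate. The score was read as minus 10 times log10 of a p-value because MACS 1.4 writes this. No source used here says whether the input served as control.

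Starts were written 1-based. Peaks overlapping by at least 1 bp were shared, and chains of them formed regions. Ranks were taken by score within each list. Windows of 120 kb were laid from 3 Mb on. Positions of Gstp1 and Gstp2 came from the rule that defined the window. Motifs were searched on both strands of RefSeq promoter windows (GRCm38.p6), 250 bases before to 50 after each start. Promoters were aligned globally with free end gaps (match 1, mismatch -1, gap opening -2). Overlap and motif searches were tested on simulated data. The window, members and gene lists were chosen with earlier results of these data known, and no test was run. Named genes were the Gstp genes, up to 3 neighbours on each side and the listed transferases with TGACNNNGC or TGANTCAGC. Named peaks were those in the window, the nearest outside it and those next to the strong peak in score. The peaks that lead chromosome 19 were added after their values were seen. Alternatives were score minima, stricter overlap, other windows, other rankings and other motif letters. Tools were Python 3.11.15, NumPy 2.4.6, pandas 2.3.3, Biopython 1.88 and matplotlib 3.10.9.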

Additional observations from a re-analysis of the deposited data

How the results depend on the processing

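The shared Gstp region was found under each of the 6 alternatives run for it. These were scores of at least 100, the 1000 highest-scoring peaks, overlap of at least 50% of both peaks and centres within 200 bp. The others were the middle 60 kb and a window of 240 kb. The scores, ranks, overlap and position of the region already met each of these settings, so this outcome was fixed in advance. The second peak of replicate 2 was lost with scores of at least 100 and with the middle 60 kb, each leaving 1 peak there instead of 2. The window held 3 peaks over both lists, 2 without replicate 1 and 1 without replicate 2. With 1 list left, no overlap could be taken. The worse rank, 19, was 16 on chromosomes 2 to 19, 9 among isolated peaks and 396 by width (390 in replicate 1). The ranks of 16 and 9 follow from leaving out higher-scoring peaks, 10 of them for the rank of 9. The cause of the lower place by width was not tested. The worse rank was 6 without replicate 1 and 19 without replicate 2. From the near edge in place of the centre, the distance to Gstp1 was 9.735 kb in replicate 1 and 9.61 kb in replicate 2, and that to Gstp2 was 4.735 and 4.61 kb. The share of promoters with a match, 12.4% for TGACNNNGC, was 41.3% for TGANNNNGC and, with letters chosen after seeing the sequences, 7.81% for TGANTCA and 1.19% for TGANTCAGC. No paired analysis was possible because the ChIP samples form a single group. The unknown depth limits any reading of the peak found in replicate 2 only, and no mm9 sequence or gene table was used here.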
